A study of Mus musculus with 18 samples.

Results

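Unstimulated mast cells that lacked ST2 were compared with unstimulated wild-type mast cells on 6 of the 18 arrays of the series, 3 per genotype, chosen by their labels alone. All cells were bone marrow-derived mast cells (BMMCs) of the C57BL/6J strain, from donors of 4 to 6 weeks of age. The wild-type (WT) and the ST2 knockout (ST2KO) cells of this comparison received no stimulus. The other 12 arrays came from the same genotypes after 4 h of IgE activation or of IL-33, again 3 per group. How the knockout allele was made, how often the line was backcrossed, and whether the arrays of a group came from separate mice or cultures are not given in the sources used here. The p-values therefore measure only the spread between these arrays, which may be technical.

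ST2, encoded by Il1rl1, is the receptor chain that binds the cytokine IL-33. It pairs with the accessory chain encoded by Il1rap and signals through the adaptor MyD88 to NF-kB and MAP kinases, and mast cells carry it at a high level. Without IL-33 in the culture the receptor has no added ligand, so the comparison asks how far the 2 genotypes differ before any stimulus.

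Levels are log2 intensities after background correction and quantile normalization, differences are ST2KO minus WT on that log2 scale, and every adjusted p is from limma with Benjamini-Hochberg adjustment over 10529 genes at a threshold of 0.05. The median intensity of the 6 arrays was 86.4 to 96.5 before normalization, and 16204 to 17490 of 45281 probes were detected on each. The number of arrays limits the precision: the median gene had a 95% interval of 0.46 log2 units to either side of its difference. No probe carried the name of Il1rl1 in the gene table, so the knockout label was not checked on the targeted gene. In both genotypes the array numbered 3 stood apart. It held 466 genes over 2-fold higher and 382 over 2-fold lower than the mean of numbers 1 and 2 in WT cells, and 737 higher and 720 lower in ST2KO cells, against 16 and 13 genes past that fold between numbers 1 and 2. Deviations from the group mean correlated across genes at 0.548, 0.605 and 0.727 for the WT and ST2KO arrays that shared a number. Crossed pairs of numbers 1 and 2 correlated at 0.604 (WT number 2 with ST2KO number 1) and 0.490 (WT number 1 with ST2KO number 2). These values thus set number 3 apart but do not show that numbers 1 and 2 are paired. The replicate number was also fitted as a block, over all 18 arrays. That fit includes ST2KO IgE replicate 3, whose values were placed by rank.

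Without stimulation the genotypes differed in few genes. In the fit without the block, 1 of 10529 genes passed the threshold, 0.0095% of those tested: Rpe, which fell in ST2KO cells. No gene rose in that fit, while 341 genes had an unadjusted p under 0.05. With the block, 21 genes passed, 0.199% of those tested, of which 7 rose (0.0665%) and 14 fell (0.133%), and 13 of them differed over 2-fold. Both counts depend on the arrays numbered 3: without all 6 of these in the series, 535 genes passed (5.08%), and 606 with the block. Scaling each array by its median in place of quantile normalization gave 4 rises and 28 falls with the block, and moved the median difference of all genes from 0.01 to -0.12.

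**Figure D1:**
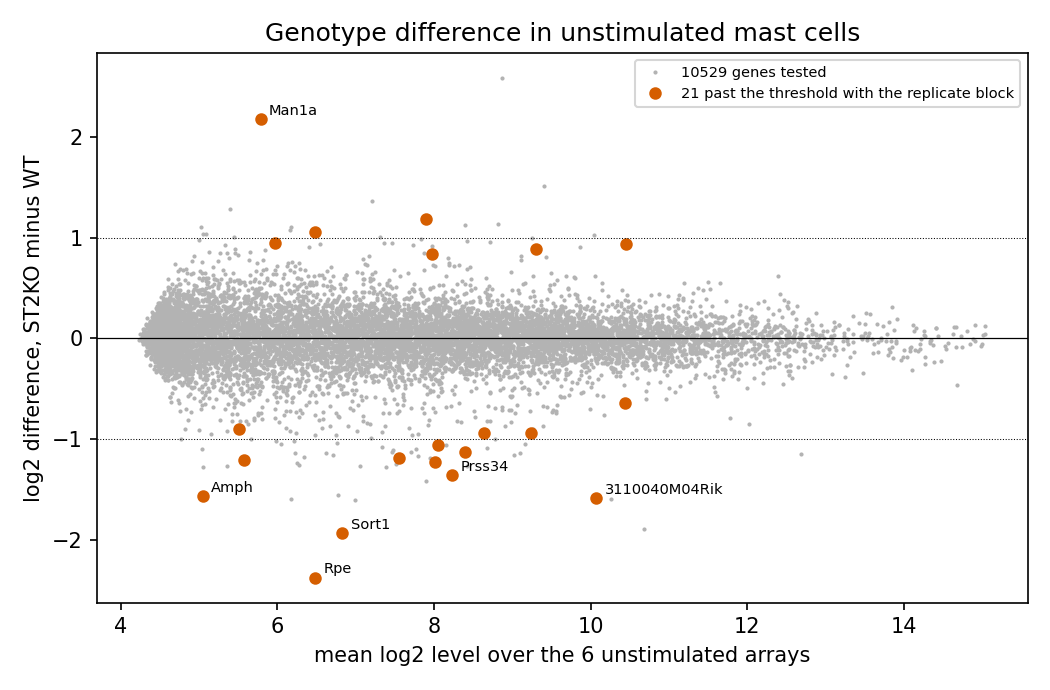
Each point is 1 of the 10529 genes tested, with its mean log2 level over the 6 unstimulated arrays on the horizontal axis and its log2 difference, ST2KO minus WT, on the vertical axis; orange points are the 21 genes past the threshold with the replicate block, and dotted lines mark a 2-fold difference. Most genes lie between the dotted lines, with Rpe lowest at -2.37 and Man1a at 2.17.

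For most genes the arrays set a bound on the difference. The 95% interval lay within a 2-fold change either way for 8656 genes, 82.2% of those tested. The point difference itself was over 2-fold for 64 genes, 17 higher and 47 lower in ST2KO cells. Of all genes, 5477 were higher and 5052 lower, with a median difference of 0.01. The 3 ST2KO arrays lay wholly above the 3 WT arrays for 479 genes (4.55%) and wholly below them for 368 (3.50%).

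Rpe encodes ribulose-5-phosphate 3-epimerase, an enzyme of the non-oxidative pentose phosphate pathway. Its level was 7.66, 7.52 and 7.82 on the WT arrays and 5.18, 5.04 and 5.65 on the ST2KO arrays. All 3 ST2KO arrays lay well below all 3 WT arrays, and the fall was of like size in each numbered pair (-2.47, -2.48 and -2.17). The level was 5.19-fold lower in ST2KO cells (log2 -2.37 ± 0.28 SE, adjusted p = 0.00515, and 0.000352 with the block). Rpe was measured by 1 probe, and its difference was -1.29 without background correction. It passed in 16 of 19 settings. The call was lost in a fit on the 6 arrays alone (adjusted p = 0.181) and without ST2KO replicate 1 or ST2KO replicate 2, though not with the block, where it passed without each of the 6 arrays in turn.

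Man1a showed the largest rise among the genes past the threshold with the block. It encodes a Golgi alpha-mannosidase that trims N-glycans. Its level was 4.44, 4.87 and 4.78 on the WT arrays, where it was detected on 2 of 3, and 6.63, 6.82 and 7.17 on the ST2KO arrays. The groups did not overlap, and the level was 4.51-fold higher in ST2KO cells (log2 2.17 ± 0.33 SE with the block, adjusted p = 0.007 with it and 0.199 without it). Since its WT level lay close to the detection limit, the size depends on the background correction, without which the difference was 0.95. With the block the call was lost without WT replicate 2 or ST2KO replicate 1.

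The start regions of these 2 genes, the largest fall and the largest rise among the genes called with the block, are printed here as RefSeq gives them in GRCm38.p6, from 250 bases before the start to 50 after it, 5′ to 3′ on the strand of the gene. RefSeq windows were at hand for 13 of the 21 genes. Capitals mark the GC box GGGCGG on either strand. The motif of GATA factors, GATAA on either strand, does not occur in either window, and the 2 motifs do not overlap. The Rpe window is chr1:66700581-66700880 on the + strand and the Man1a window is chr10:54075688-54075987 on the - strand.
Rpe: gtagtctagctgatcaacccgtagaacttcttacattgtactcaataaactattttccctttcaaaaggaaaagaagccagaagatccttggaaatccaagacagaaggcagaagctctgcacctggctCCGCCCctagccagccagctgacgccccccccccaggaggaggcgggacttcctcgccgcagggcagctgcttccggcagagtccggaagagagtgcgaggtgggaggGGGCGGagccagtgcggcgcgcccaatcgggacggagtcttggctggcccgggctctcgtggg
Man1a: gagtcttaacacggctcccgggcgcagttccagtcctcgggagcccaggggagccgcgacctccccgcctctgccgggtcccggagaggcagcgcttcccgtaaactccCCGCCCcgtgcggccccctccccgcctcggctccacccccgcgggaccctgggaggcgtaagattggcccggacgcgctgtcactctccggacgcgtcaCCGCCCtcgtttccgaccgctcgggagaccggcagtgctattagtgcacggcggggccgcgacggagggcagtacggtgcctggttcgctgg
Each of these windows holds 2 GC boxes. A window of Gfi1, a gene that also rose with the block, was scanned too and holds 0 of either motif. The GC box is found in 35.7% of the 32851 RefSeq windows of this length and GATAA in 25.4%, and no binding was measured here.

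The other genes that rose with the block span several roles. Gfi1, a zinc-finger repressor gene that acts in blood cell differentiation, stood at 8.76, 8.89 and 8.91 in WT cells and at 9.72, 10.02 and 9.48 in ST2KO cells. The groups did not overlap, at a difference of 0.89 ± 0.14 SE (adjusted p = 0.0109 with the block, 0.199 without it). Entpd4, which encodes a nucleotide-cleaving enzyme of the Golgi and lysosome, stood at 9.82, 9.80 and 10.30 in WT cells and at 10.80, 11.03 and 10.91 in ST2KO cells. Its groups did not overlap either, at 0.94 ± 0.13 SE (adjusted p = 0.00564 with the block), and its second, dim probe differed by 0.83. Entpd4 has a near-identical neighbouring copy in the mouse genome, which these probes may not tell apart, and it was listed among genes known to vary between mouse strains.

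Arhgef4, a guanine nucleotide exchange factor gene, rose from 7.08, 6.93 and 7.89 to 8.31, 8.17 and 8.98 (difference 1.19 ± 0.16 SE, adjusted p = 0.00531 with the block). Hs3st3b1, which encodes a heparan sulfate 3-O-sulfotransferase, rose from 5.56, 5.74 and 6.56 to 6.72, 6.77 and 7.52 (difference 1.05 ± 0.15 SE, adjusted p = 0.00531 with the block). In both genes every ST2KO array lay above every WT array. Ube2e2, a ubiquitin-conjugating enzyme gene, rose by 0.95 ± 0.17 SE with the block (adjusted p = 0.0325), but the lowest ST2KO level, 6.08, lay below the WT level of 6.34 on the array numbered 3. The seventh gene that rose, AU020206, is named after its values were seen, at 0.84, also with overlapping groups.

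Among the genes that fell with the block, Sort1 came next to Rpe. Sort1 encodes sortilin, a sorting receptor between the Golgi and endosomes. Its level was 7.85, 7.80 and 7.74 on the WT arrays and 5.54, 5.49 and 6.56 on the ST2KO arrays. The groups did not overlap, and the ST2KO array numbered 3 was closest to WT. The level was 3.81-fold lower (log2 -1.93 ± 0.26 SE, adjusted p = 0.00531 with the block and 0.324 without it). A second probe of Sort1 differed by -1.79, and another, dim probe by -0.11. The mean of its probes differed by -1.28, and the probe used differed by -1.14 without background correction.

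Amph, which encodes the membrane-bending protein amphiphysin, stood at 6.35, 6.44 and 4.69 in WT cells and was detected on none of the ST2KO arrays. Its level was at least 2.20-fold lower, measured against the lowest detected level of those arrays (measured means 5.83 and 4.26, adjusted p = 0.0132 with the block). The WT array numbered 3 was close to the detection limit as well, and without background correction the difference was -0.64, so this bound rests on the correction. Ogfrl1, an opioid growth factor receptor-like gene, stood at 8.53, 8.74 and 8.59 in WT cells and at 7.36, 7.41 and 7.41 in ST2KO cells. These groups lay apart with a narrow spread on all 3 numbers (difference -1.23 ± 0.23 SE, adjusted p = 0.0327 with the block, 0.199 without it). With the block, the call on Ogfrl1 was lost whichever of the 6 arrays was left out.

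Prss34 encodes a serine protease of mast cells and basophils, and was the only member of the mast cell protease list that passed in either fit. Its level was 9.94, 10.21 and 6.58 in WT cells and 9.01, 8.99 and 4.67 in ST2KO cells. The groups overlapped, since both arrays numbered 3 lay far below the others, and Prss34 was lower in ST2KO cells in each numbered pair (-0.93, -1.22 and -1.91). The difference was -1.35 ± 0.21 SE with the block (adjusted p = 0.0109), and it did not pass without the block. In the fit without the block the difference was 0.09 when ST2KO replicate 3 was left out, where the ST2KO mean holds numbers 1 and 2 and the WT mean all 3.

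Atp8b1, a phospholipid flippase gene, stood at 6.33, 6.43 and 5.76 in WT cells and at 4.92, 5.16 and 4.82 in ST2KO cells. Its groups did not overlap (-1.21 ± 0.23 SE, adjusted p = 0.0411 with the block, and a difference of -0.48 without background correction). Gpx3, the gene of the secreted glutathione peroxidase, and Hbb-y, an embryonic beta-like globin gene, fell by 1.19 and 1.13 with the block (adjusted p = 0.0344 and 0.0109). The call on Gpx3 was lost whichever of the 6 arrays was left out. Both had overlapping groups, because the level moved by more between number 3 and the other numbers than between genotypes: Hbb-y stood at 10.55, 10.69 and 5.65 in WT cells and at 9.80, 9.33 and 4.38 in ST2KO cells. In the fit without the block the difference of Hbb-y was 0.60 when ST2KO replicate 3 was left out. The beta-like globin genes are similar in sequence, so probes of the family may not tell them apart. Pisd-ps1, a pseudogene of the mitochondrial phosphatidylserine decarboxylase gene, fell by 1.05 with the block (adjusted p = 0.0294), and its relative Pisd-ps3 by 0.94, with a second probe of Pisd-ps3 at -0.11. The remaining genes that fell are named after their values were seen: 3110040M04Rik (-1.58), Spink4, a protease inhibitor gene (-0.94), 4930481A15Rik (-0.90) and Nrn1, the neuritin gene (-0.64).

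**Figure D2:**
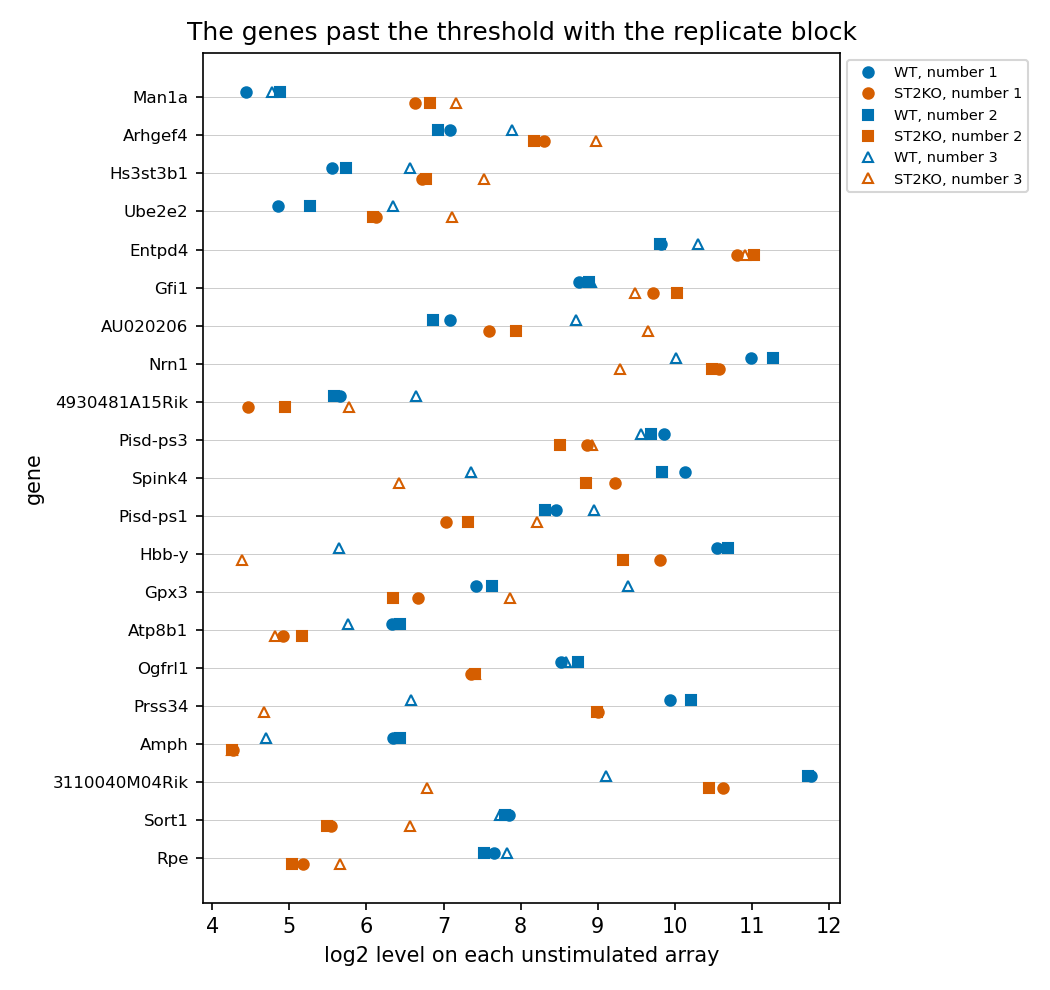
Each row is 1 of the 21 genes past the threshold with the replicate block, and the horizontal axis is its log2 level on each unstimulated array; blue symbols are WT arrays, orange symbols ST2KO arrays, and the shape gives the array number. In each row the blue and orange symbols of the same shape differ in the same direction, while number 3 (open triangles) lies far from the others in genes such as Hbb-y and Prss34.

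Of the 21 genes, 12 had groups that did not overlap, 5 of them higher in ST2KO cells, against 8.04% of all genes tested. All 21 had the same sign in the 3 numbered pairs, which the block fit itself selects for. Calls with the block were sensitive to single arrays. Leaving out WT replicate 2 left Rpe as the only gene called, and leaving out ST2KO replicate 2, WT replicate 1 or ST2KO replicate 1 left 6, 9 or 11 genes. With the block on the 6 arrays alone, 2 genes passed, Rpe and Man1a.

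The genes past the threshold without the arrays numbered 3 could be read on a pair of arrays that did not choose them. Of these 535 genes, 288 were higher (2.74%) and 247 lower (2.35%) in ST2KO cells, and they hold all 21 genes called with the block. The array pair numbered 3 had the same direction for 253 of the 535, or 47.3%, against 50.1% of all genes tested. The median difference of the 288 higher genes was 0.75 on numbers 1 and 2 and -0.15 on number 3, and that of the 247 lower genes was -0.77 and -0.04. For 47 of the 535 genes the number 3 pair differed over 2-fold in the opposite direction. Serpina3f, a serine protease inhibitor gene named here after its values were seen, stood at 7.70 and 7.99 in WT cells and at 10.13 and 9.86 in ST2KO cells on numbers 1 and 2, while on number 3 it stood at 10.30 in WT and 6.71 in ST2KO cells. Its order was thus turned on number 3. Erdr1, also named after its values were seen, stood at 9.59, 8.87 and 4.27 in WT cells and at 11.06, 10.84 and 8.58 in ST2KO cells. Erdr1 was higher in ST2KO cells on every number, but its WT level on number 3 lay far below the others, and it passed in neither fit that used all 3 numbers.

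**Figure D3:**
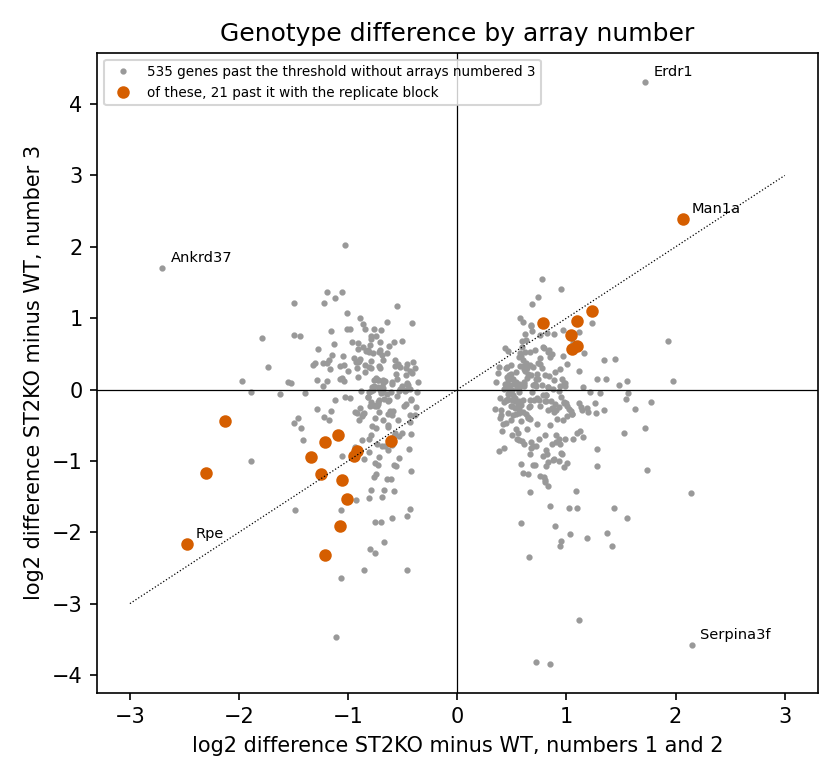
Each point is 1 of the 535 genes past the threshold without the arrays numbered 3, with its log2 difference, ST2KO minus WT, on numbers 1 and 2 on the horizontal axis and on number 3 on the vertical axis; orange points are the 21 genes called with the replicate block, and the dotted line marks equal differences. The grey points spread to both sides of 0 on number 3, where 253 of the 535 keep their direction.

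Genes of glycolysis and of the response to low oxygen, many of them targets of the factor HIF-1, were the clearest group of this kind. With all arrays, 0 of 23 members tested passed in either fit, 19 were lower and 4 higher in ST2KO cells, and their median difference was -0.37, against 0.01 over all genes tested. Without the arrays numbered 3, 14 of 23 fell and 0 rose, where 2.35% of all genes fell and 2.74% rose, and the median was -0.62. On number 3 the median was 0.36 and 19 of 23 were higher in ST2KO cells. Pgk1, the gene of the glycolytic enzyme phosphoglycerate kinase, stood at 12.36, 12.33 and 10.75 in WT cells and at 11.43, 11.44 and 11.14 in ST2KO cells. The WT array numbered 3 was thus the lowest of the 6. Ankrd37, an ankyrin repeat gene induced by low oxygen, stood at 8.26, 7.25 and 5.10 in WT cells and at 5.28, 4.82 and 6.80 in ST2KO cells. Its difference was -2.71 without number 3 (adjusted p = 1.82e-06) and 1.70 on number 3. Pgk1 and Ankrd37 are named after their values were seen.

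Of the 32 cell cycle genes tested, 0 passed in either fit, 27 were lower in ST2KO cells, and their median difference was -0.40. The medians of the numbered pairs were -0.12, -0.42 and -0.39. Without the arrays numbered 3, 5 of the 32 fell, where 2.35% of all genes did, among them Cdk1, the mitotic kinase gene. Of 18 cholesterol synthesis genes, 0 passed, 15 were lower, and the median was -0.34, with pair medians of -0.06, -0.53 and -0.39. Both lists also moved with the array number, by medians of -0.85 and -1.19 in WT cells from numbers 1 and 2 to number 3. With median scaling, the medians of the cell cycle, cholesterol and glycolysis lists stood at -0.43, -0.37 and -0.39 relative to that of all genes. Without background correction they stood at -0.23, -0.19 and -0.33 relative to it, against -0.41, -0.35 and -0.38 with it.

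**Figure D4:**
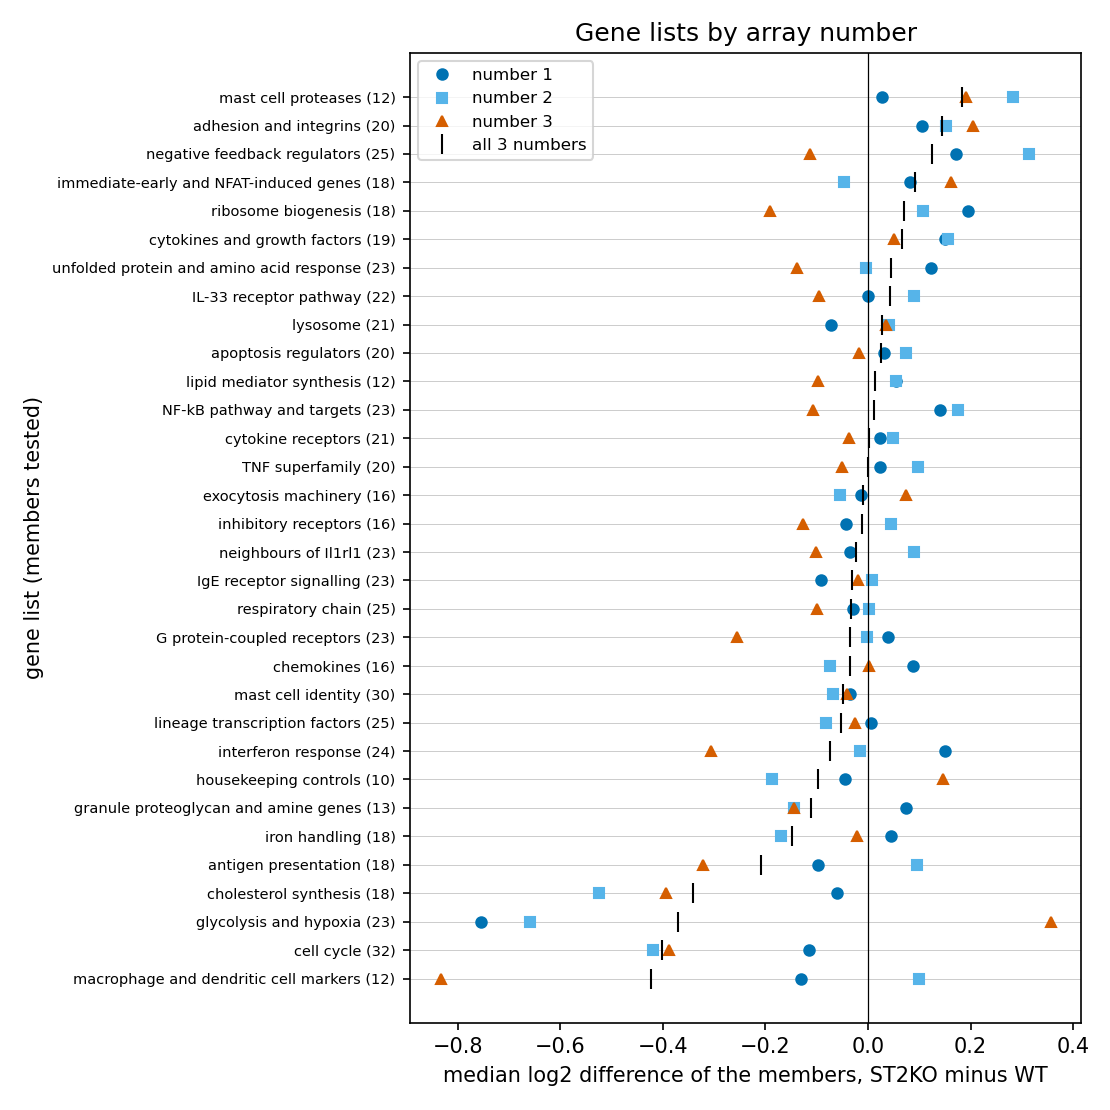
Each row is a gene list with at least 10 members tested, whose number stands in brackets, and the horizontal axis is the median log2 difference of its members, ST2KO minus WT, for each numbered pair of arrays (symbols) and for the means over all 3 numbers (black ticks). Most lists lie close to 0, and glycolysis and hypoxia genes lie at -0.75 and -0.66 on numbers 1 and 2 and at 0.36 on number 3.

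The cells of both genotypes carried mast cell genes at high levels. The mean level in WT cells was 14.8 for Fcer1a, the alpha chain of the high-affinity IgE receptor, and 14.1 for Kit, the stem cell factor receptor. Of 30 mast cell identity genes tested, 0 passed in either fit, 12 were higher and 18 lower, and their differences ran from -0.35 for Itga2b to 0.39 for Hdc, with a median of -0.05. For 23 of the 30 the 95% interval lay within a 2-fold change. Fcer1a stood at 14.83, 14.84 and 14.65 in WT cells and at 14.73, 15.01 and 14.80 in ST2KO cells. Kit stood at 14.04, 14.13 and 14.25 in WT cells and at 13.94, 14.09 and 13.81 in ST2KO cells. In both genes the groups overlapped, with differences of 0.07 ± 0.10 and -0.19 ± 0.14 SE. Gata2, the gene of a transcription factor of the mast cell lineage, and Cpa3, the carboxypeptidase gene of the granules, differed by -0.13 and -0.06. Hdc, which encodes the enzyme that makes histamine, stood at 11.47, 11.39 and 10.96 in WT cells and at 12.08, 12.10 and 10.82 in ST2KO cells. Hdc was higher in ST2KO cells on numbers 1 and 2 only, and passed the threshold without the arrays numbered 3 (0.66 ± 0.12 SE, adjusted p = 0.0009).

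Of 12 mast cell proteases tested, 1 passed with the block, Prss34, and the median difference was 0.18. Without the arrays numbered 3, 3 rose (Tpsab1, Ctsg and Ctsc) and 1 fell (Prss34), where 2.74% of all genes rose and 2.35% fell. Tpsab1 was lower in ST2KO cells on number 3. Ctsc, the cathepsin C gene, stood at 11.10, 11.14 and 11.11 in WT cells and at 11.71, 11.75 and 11.40 in ST2KO cells (limma adjusted p = 0.0731 with the block). The chymase gene Cma1 stood at 15.03, 14.98 and 14.91 in WT cells and at 15.19, 15.04 and 15.07 in ST2KO cells, near the top of the scale on all arrays. Mcpt4, the chymase gene of connective tissue mast cells, stood at 7.70, 6.97 and 13.73 in WT cells and at 7.62, 7.59 and 14.34 in ST2KO cells. Its level was far higher on number 3 than on the others in both genotypes, at a genotype difference of 0.38 ± 0.43 SE with the block. Ctsg, the cathepsin G gene, stood at 6.81, 6.63 and 12.83 in WT cells and at 8.11, 8.58 and 12.55 in ST2KO cells. It was higher in ST2KO cells on numbers 1 and 2 only.

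The signalling partners of ST2 did not pass the threshold. Of 22 genes of the IL-33 receptor pathway tested, 0 passed in either fit, 13 were higher and 9 lower, and the median was 0.04, against -0.11 with median scaling, where all genes stood at -0.12. Il1rap, the accessory chain gene, stood at 5.23, 4.71 and 5.02 in WT cells and at 5.06, 4.80 and 4.92 in ST2KO cells. The groups overlapped, at -0.06 ± 0.27 SE. Myd88, the adaptor gene, stood at 11.68, 11.52 and 11.47 in WT cells and at 11.67, 11.87 and 11.28 in ST2KO cells, also with overlap. The receptor chain genes of the related cytokine IL-18, Il18r1 and Il18rap, differed by -0.04 and -0.06. The highest difference in the list was that of Il1r2, the decoy receptor of IL-1, at 0.59, with a higher level in ST2KO cells on numbers 1 and 2 only. The cytokine genes Il13 and Il6, which mast cells release on stimulation, differed by 0.12 ± 0.49 and 0.39 ± 0.49 SE without stimulation, and neither passed.

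Il1rl1 lies on chromosome 1, where the flanking DNA of a knockout allele stays linked to it. Among the 20 tested genes nearest to Il1rl1 on each side in the gene order of GRCm38.p6, 0 of 40 passed in either fit. Their differences ran from -0.87 for Tbc1d8 to 0.76 for Fhl2, with a median of -0.0022, and 20 were higher and 20 lower. Without the arrays numbered 3, where 5.08% of all genes passed, Tbc1d8 and Il1r2 were among the neighbours that passed in limma. Tbc1d8 differed by -1.16 (adjusted p = 5.13e-05) and by -0.30 on number 3, with all ST2KO arrays below all WT arrays. Il1r2 differed by 1.01 (adjusted p = 0.000568) and by -0.24 on number 3. These 40 genes were measured by 56 probes, of which 1 passed with the block, a second probe of Ercc5, a DNA repair endonuclease gene. That probe stood at 8.76, 8.75 and 8.91 in WT cells and at 7.63, 7.93 and 7.77 in ST2KO cells. Its groups lay apart, at -1.03 ± 0.23 SE without the block. Over all probes, its limma adjusted p was 0.449 without the block and 0.00478 with it. The probe taken for the gene, which had the higher mean level over the 18 arrays, differed by 0.18. Ercc5 is named after its values were seen.

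Farther along chromosome 1, 4 of the 21 genes called with the block are found: Arhgef4 and Ogfrl1 lie 55 and 88 genes before Il1rl1, and Rpe and 3110040M04Rik 147 and 620 genes after it. Of all genes tested, 5.38% lie on this chromosome. The count of 4 was not tested against this share, and the origin of the flanking DNA was not tested.

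Of 6 sex-linked genes tested, 0 passed in either fit. Xist, the RNA of the inactive X chromosome, stood at 10.71 to 11.24 in WT cells and at 10.79 to 11.23 in ST2KO cells. Of the Y-linked genes, Uty and Kdm5d were detected on none of the 6 arrays and Eif2s3y on 1 WT array. Ddx3y had no probe under its name. The X-linked demethylase gene Kdm5c stood at 4.78, 5.03 and 5.32 in WT cells and at 4.59, 4.42 and 4.26 in ST2KO cells, where it was detected on no array. These groups did not overlap, but the gene did not pass (adjusted p = 0.999, and 0.304 with the block). Nnt, a mitochondrial gene that differs between C57BL/6 substrains, was not tested: its 8 probes were detected on at most 2 arrays.

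Markers of other cell types were read as summed linear levels, which compare arrays within a list and not 1 list with another, since each probe has its own scale and lists share members (Il3ra, Cd200r3 and Itga2b are also in the identity list). The summed linear level of the identity genes was 185411 to 187003 in WT and 176829 to 184225 in ST2KO cells. The 12 macrophage and dendritic cell markers tested, of 18, summed to 1919 to 10797 in WT and 1700 to 4116 in ST2KO cells. The highest sums were on number 3 in both genotypes. The median difference of the 12 was -0.42, with pair medians of -0.13, 0.10 and -0.83, and 0 of 12 passed. The other 6 were not tested. Cd68 had no probe under its name, and Itgam, Mrc1 and C1qb were detected on none of the complete arrays. Itgax and C1qc were detected on at most 2 of them. The 2 B cell markers summed to 66 to 510 and 56 to 900, again highest on number 3. The 3 neutrophil markers summed to 72 to 94 and 66 to 108, and the only T and NK cell marker tested to 22 to 26 and 20 to 23. Eosinophil and stromal lists held 1 gene each past the detection filter, with sums of 45 to 222 and 31 to 354 for Ccr3, and 51 to 74 and 26 to 132 for Cxcl12. The 4 erythroid markers summed to 145 to 383 and 137 to 273, lowest on number 3. All 4 were lower in ST2KO cells, with a median difference of -0.41, and 0 passed. The beta globin genes Hbb-bs and Hbb-bt, named after their values were seen, are not in this sum. Hbb-bs stood at 12.13, 12.26 and 10.51 in WT cells and at 11.22, 10.95 and 7.04 in ST2KO cells. Hbb-bt stood at 11.82, 11.83 and 9.53 in WT cells and at 10.85, 10.67 and 6.88 in ST2KO cells. Both passed in neither fit of all arrays. The 4 megakaryocyte markers summed to 2610 to 5781 and 1766 to 5419. Of the 4 basophil markers, which summed to 6426 to 8715 and 6576 to 9044, 1 passed with the block, Prss34, at -1.35, while Mcpt8, a basophil protease gene, did not pass, with a level of 6.39, 6.00 and 9.14 in WT cells and of 6.11, 6.34 and 10.24 in ST2KO cells. In RNA of whole cultures, fewer cells of a type and less RNA per cell cannot be told apart, and the part of these cells in the genotype differences was not tested.

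The genotype difference of the 21 genes was then read on the 12 stimulated arrays, none of which enters the unstimulated group means. These arrays carry the same replicate numbers: deviations from the group mean correlated at 0.520 to 0.918 across genes between an unstimulated and a stimulated array of the same genotype and number. They are therefore not shown to be separate cultures, and the spread of each gene, estimated over all 18 arrays, enters both the choice of the 21 genes and their calls here. After IgE, all 21 genes had the sign they had without stimulation, against 63.0% of all genes tested. Of the 21, 1 passed in the IgE comparison, where 0.0095% of all genes did, and 11 with the block, where 0.133% did. After IL-33, 18 of the 21 kept their sign, against 55.7% of all genes. Of the 21, 7 passed there, Ogfrl1 among them with its sign turned, where 11.6% of all genes passed in either direction. With the block, 15 passed with their sign kept, where 27.7% of all genes passed in either direction. Ogfrl1 and 4930481A15Rik also passed with the block, with their sign turned.

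The genotype difference of Rpe was -2.19 ± 0.28 SE after IgE (adjusted p = 0.014) and -2.88 ± 0.28 SE after IL-33 (adjusted p = 2.56e-05). After IgE, Rpe was detected on 1 of the 2 ST2KO arrays measured, so that difference depends on the level given to a dim probe. The limma F-test of a difference between states gave an adjusted p of 0.760 without the block. Man1a was higher by 2.30 after IgE and 2.04 after IL-33, beside 2.17 without stimulation. Sort1 differed by -1.48 ± 0.40 SE after IgE and by -0.75 ± 0.40 SE after IL-33, and passed in both with the block only. Amph passed in neither state, with or without the block, and was detected on 0 ST2KO arrays after IgE and 1 after IL-33, against 2 WT arrays in each.

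The moderated F-test of limma over the states was read in the fit without the block, where 2.35% of all genes passed. By it, the genotype difference itself varied over the states for 2 of the 21 genes. With the block this test called more genes. The 21 genes were chosen with the block, so those that did not pass here are not shown to be stable. Gfi1 differed by 0.89 without stimulation, 0.79 after IgE and 2.32 after IL-33 (adjusted p = 0.00458). Its level was higher in ST2KO cells in each state. From no stimulus to IL-33, the mean level of Gfi1 went from 8.85 to 7.48 in WT cells and from 9.74 to 9.79 in ST2KO cells. Ogfrl1 differed by -1.23 without stimulation, -0.92 after IgE and 0.86 after IL-33 (adjusted p = 0.00527). Its sign was turned after IL-33, where it passed as higher in ST2KO cells (adjusted p = 0.024). The mean level of Ogfrl1 went from 8.62 to 6.65 in WT cells and from 7.39 to 7.51 in ST2KO cells. In both genes the larger difference between these 2 states thus lay in the WT level. Hs3st3b1, which differed by 1.05 without stimulation and 1.10 after IgE, differed by -0.09 after IL-33. The F-test over states gave it an adjusted p of 0.458 without the block.

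**Figure D5:**
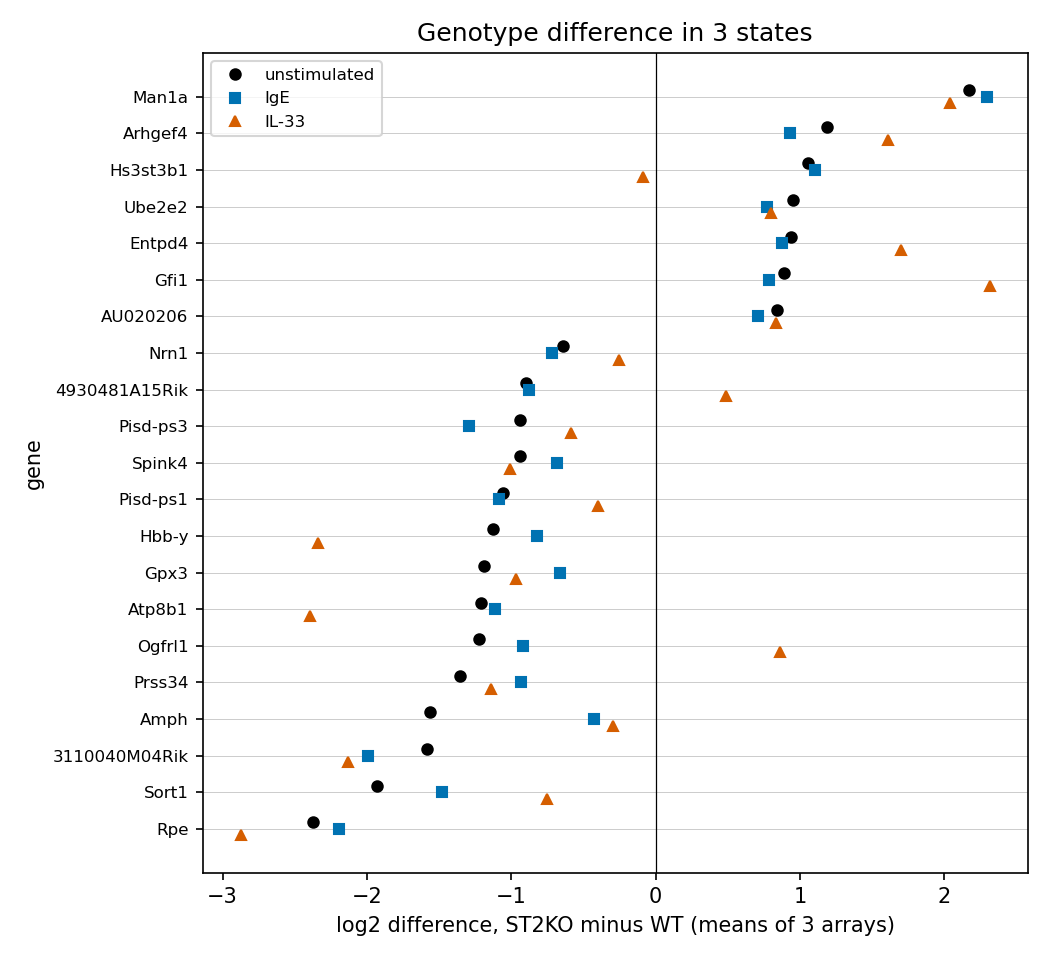
Each row is 1 of the 21 genes past the threshold with the replicate block in unstimulated cells, and the horizontal axis is the log2 difference of the group means, ST2KO minus WT, without stimulation (black), after IgE (blue) and after IL-33 (orange). The black and blue symbols lie on the same side of 0 in all 21 rows, and Ogfrl1 stands at 0.86 after IL-33 against -1.23 without stimulation.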

How the data were processed

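Biotin-labelled mast cell RNA was hybridised by the authors to Illumina bead arrays, per the labels. The authors deposited, per the file headers, raw intensity and detection p-value columns for 45281 probes on 18 arrays, and a normalized table on a log2 scale whose background method is not given in the sources used here. ST2KO IgE replicate 3 held 10012 of 45281 intensities, and its values were filled in from the ranks of its probes in the authors' log2 table. The other 17 arrays were background corrected with negative controls estimated from detection p-values, then quantile normalized (limma 3.58.1 in R 4.3.3, offset 16). A detection p under 0.05 on 3 or more complete arrays was required, which 19514 probes met. Of these, 16637 carried 1 symbol, and the probe with the highest mean level stood for each of 10529 genes.

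All 18 arrays entered 1 limma model of 6 group means, with eBayes and an intensity trend (12 residual degrees of freedom, 10 with the replicate number as a block). The fit was also run on simulated data, in which all groups shared the replicate effect. That is the assumption of the block, so the run cannot show whether it holds for these arrays. Same-numbered WT and ST2KO arrays deviated together across genes in all 3 pairs, but WT number 2 and ST2KO number 1 did so at 0.604, so the pairing of numbers 1 and 2 is uncertain. The members and lists were chosen with earlier results of these data known. Named were up to 14 rises and falls past the threshold, up to 8 of each with the block only, without clone names, a fixed set of 20 genes, and members of the described lists with the smallest adjusted p or highest level. A fold against an undetected group is taken against the lowest detected level of its arrays. Alternatives changed the background correction, normalization, source, filter, probe choice, arrays and spread estimate.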

Additional observations from a re-analysis of the deposited data

Results flagged for a closer look

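The genotype difference varied over the unstimulated, IgE and IL-33 states for 4 of the named genes, by limma's F-test without the block. Of all genes tested, 2.35% passed that test. Gfi1 (adjusted p = 0.00458) and Ogfrl1 (0.00527) are described above. Il13 differed by 0.12 without stimulation, 0.57 after IgE and -3.01 after IL-33 (adjusted p = 0.0156). Tph1, the gene of the enzyme that starts serotonin synthesis, differed by -0.34, -0.14 and -1.22 (adjusted p = 0.0489).

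Outside the gene table, 2 probes passed the threshold in unstimulated cells without the block, over 19514 probes tested. Probe ILMN_2685393 stood at 6.68, 6.75 and 5.96 in WT cells and at 4.91, 4.62 and 4.51 in ST2KO cells (difference -1.78, adjusted p = 0.0358). Probe ILMN_2461340 stood at 9.97, 10.14 and 10.10 in WT cells and at 8.86, 8.76 and 9.01 in ST2KO cells (difference -1.20, adjusted p = 0.00138). In both probes all ST2KO arrays lay below all WT arrays. With the block, 11 of the 2870 probes outside the table passed, all of them lower in ST2KO cells, against 43 of all 19514 probes, of which 36 were lower.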

How the results depend on the processing

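The comparison of unstimulated cells called 1 gene, 2 without background correction, 0 on its 6 arrays alone (285 genes with an unadjusted p under 0.05 in limma), 535 without the arrays numbered 3, and 0 to 6 without single arrays, where 0 was reached without ST2KO replicate 1 or 2 and 6 without WT replicate 3. The replicate block gave 21 genes on all arrays and 2 on the 6 arrays alone. With the block, median scaling gave 32, the arrays numbered 3 left out 606, and single arrays left out 1 to 23: 1 without WT replicate 2, 6 without ST2KO replicate 2, 9 without WT replicate 1 and 11 without ST2KO replicate 1. After IgE the 1 gene became 0 on the 6 arrays (300 with an unadjusted p under 0.05), 14 with the block and 0 to 19 without single arrays. After IL-33 the 1217 genes became 329 on the 6 arrays, 2916 with the block and 573 to 1721 without single arrays. The 247 genes whose difference varied over the states became 1265 with the block and 2661 without the arrays numbered 3. Among 40 single genes under the alternatives, 676 of 759 values kept their direction and side of the threshold, 46 passed it in addition and 3 (Rpe) lost it. The sign turned in 34 values of genes that did not pass without the block, none of them past the threshold. Without single arrays, Hbb-y ran from -2.78 to 0.60, Prss34 from -2.52 to 0.091, Mcpt4 from -1.86 to 2.52, Mcpt8 from -0.95 to 1.37, Il18r1 from -0.50 to 0.65, Il18rap from -0.32 to 0.24, Mitf from -0.29 to 0.17, Il1rap from -0.19 to 0.064, Tpsb2 from -0.16 to 0.091, Il13 from -0.13 to 0.51, Myd88 from -0.083 to 0.21, Xist from -0.063 to 0.21 and Fcer1a from -0.0053 to 0.13. Without the arrays numbered 3, Il18r1 stood at 0.19, Mitf at 0.26, Tpsb2 at 0.025 and Xist at -0.0052. With median scaling Myd88 stood at -0.14 and Xist at -0.11, and the mean of its probes put Il18r1 at 0.012. The cause of these shifts was not tested. The slide as a block was not run, since the file headers used here give no slides.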
